A study of Homo sapiens with 4 samples.

Results

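SKP2, CDC20 and ANAPC5 encode parts of the ubiquitin ligases that drive the cell cycle, and all 3 gave lower signals in HCT116 cells that had received a short hairpin RNA (shRNA) against PCAF. The mean signal was 56.8% of the control for SKP2, 51.2% for CDC20 and 39.5% for ANAPC5. The 3 genes were taken by symbol from the authors' deposited table of genes that differ between shPCAF and shControl cells. That table names 759 of the 33297 probe sets on the arrays, and each of the 3 symbols had 1 probe set with no other symbol. Because the table was selected on the same 4 arrays, the differences of the 3 genes are given below as a description with their errors, and nothing is supported by a test of them. Where the calls of a test over all probe sets are counted, the 3 genes are placed among them as a description.

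HCT116 is an established human colorectal carcinoma cell line. Total RNA was taken from cultures growing without synchronisation, and each sample was hybridised to its own single-colour Affymetrix array. The shControl group (2 arrays, labelled wild-type) received a control shRNA, and the shPCAF group (2 arrays, labelled as PCAF knock-down) received an shRNA against PCAF, the lysine acetyltransferase now named KAT2B. The title of the series places the experiment among studies of the target genes of p27, the inhibitor of cyclin-dependent kinases that CDKN1B encodes. Whether the arrays of a group came from separate cultures, and whether more than 1 hairpin was used, is not stated in the labels, so errors cover the spread from array to array alone, and this may be technical.

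Ubiquitin ligases attach ubiquitin to chosen proteins and so mark them for the proteasome. The cell cycle is driven forward mainly by the SCF ligases and by the anaphase-promoting complex (APC/C). SKP2 is the F-box protein that lets an SCF ligase recognise phosphorylated p27, whose destruction releases cyclin-dependent kinases for entry into S phase. CDC20 is the coactivator that brings securin and cyclin B to the APC/C, which starts anaphase, and it is held back by the spindle checkpoint until chromosomes are attached. ANAPC5 is a subunit of the scaffold of the APC/C itself.

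Because the 3 genes were lower on the same arrays, the DNA just before their start sites is shown. Each sequence is the 250 bases upstream of the start site in the RefSeq promoter table (GRCh38.p14), printed 5′ to 3′ on the strand of the gene. Capitals mark every match on either strand to the motifs searched. A CCAAT box was read as the letters CCAAT. A cell cycle genes homology region (CHR) was read as TTTGAA in its usual form and as TTCGAA in a variant form. An E2F site was read in any of its common forms, written as TTCCCGC for the site in its main form, as TTGGCGC for a further form and as TTCGCGC for the remaining form. An ETS core was read as CCGGAAG and a GC box, the site of SP1 factors, as GGGCGG, while an E-box, bound by factors such as MYC, was read as CACGTG. The windows are chr5:36151861-36152110 on the plus strand for SKP2, chr1:43358731-43358980 on the plus strand for CDC20 and chr12:121352412-121352661 on the minus strand for ANAPC5. The RefSeq gene record of ANAPC5 reaches 1798 bases further upstream than this start site, so the window belongs to 1 of its starts.
SKP2: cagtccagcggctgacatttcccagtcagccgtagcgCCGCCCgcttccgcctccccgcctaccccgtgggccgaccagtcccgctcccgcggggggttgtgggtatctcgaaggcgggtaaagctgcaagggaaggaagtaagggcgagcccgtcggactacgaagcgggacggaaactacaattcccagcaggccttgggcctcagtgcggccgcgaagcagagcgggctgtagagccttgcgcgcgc
CDC20: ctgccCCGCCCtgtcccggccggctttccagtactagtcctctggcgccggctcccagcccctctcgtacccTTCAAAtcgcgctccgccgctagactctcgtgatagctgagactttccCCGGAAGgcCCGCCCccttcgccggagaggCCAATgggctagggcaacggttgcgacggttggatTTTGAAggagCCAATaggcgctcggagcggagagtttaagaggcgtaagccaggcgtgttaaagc
ANAPC5: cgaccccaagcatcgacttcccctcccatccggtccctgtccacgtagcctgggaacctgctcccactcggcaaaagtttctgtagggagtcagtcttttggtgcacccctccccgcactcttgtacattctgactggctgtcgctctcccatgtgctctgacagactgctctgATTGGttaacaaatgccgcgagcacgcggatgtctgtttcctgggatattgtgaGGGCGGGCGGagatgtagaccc

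The CDC20 window held the most matches of the 3. A CHR lay 65 to 60 bases before the start site and was followed after 4 bases by a CCAAT box at 55 to 51 bases. A further CCAAT box lay 100 to 96 bases upstream, an ETS core 130 to 124 bases upstream and a CHR on the opposite strand 178 to 173 bases upstream, and GC boxes on the opposite strand lay at 245 to 240 and 121 to 116 bases. As background, CHR elements beside CCAAT boxes are known from promoters of genes expressed in G2 and mitosis. The ANAPC5 window held a CCAAT box on the opposite strand, 76 to 72 bases upstream, and a pair of overlapping GC boxes between 22 and 13 bases upstream. The SKP2 window held a single GC box on the opposite strand, 213 to 208 bases upstream, and no match to the other letters searched. No E2F or E-box letters were found in any of the 3 windows, which says only that these exact letters are not there.

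The same letters are common in promoters. Searched in the same way, over the 250 bases upstream of each of 35116 start sites in the RefSeq table, a CCAAT box was present in 32%, a CHR of the form TTTGAA in 13.3%, an ETS core in 8.52% and a GC box in 42.6%. The windows that held a CCAAT box and a CHR of either form were 5.05% of the total. Of the 3 genes, CDC20 was the 1 that held both.

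**Figure D1:**
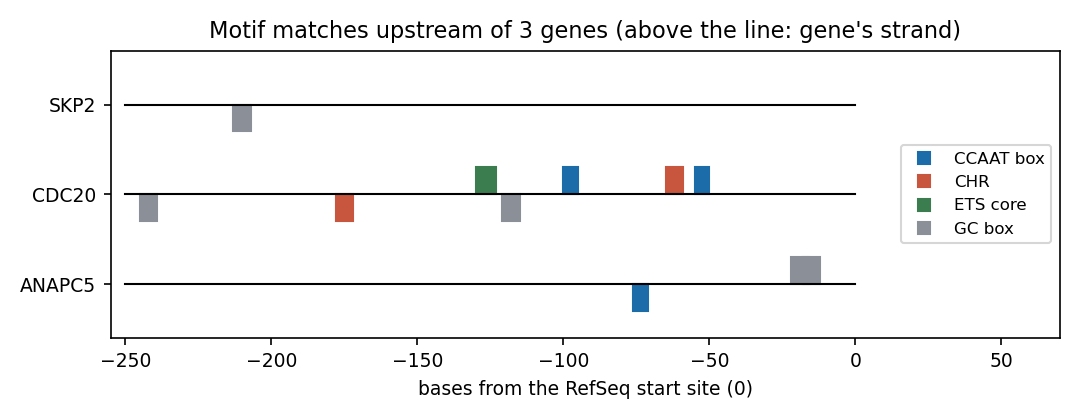
Positions of the motif matches in the 250 bases upstream of SKP2, CDC20 and ANAPC5, in bases from the RefSeq start site, with matches on the gene's own strand above each line and those on the opposite strand below it. CDC20 carries a CHR at 65 to 60 bases and a CCAAT box at 55 to 51 bases, while SKP2 carries a single GC box.

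SKP2 gave log2 signals of 11.70 and 11.49 on the shControl arrays and 10.66 and 10.89 on the shPCAF arrays. The lower shControl array stood 0.59 above the higher shPCAF array on the log2 scale, so the groups did not overlap, and the arrays within a group were 0.21 (shControl) and 0.23 (shPCAF) apart. The mean log2 signal was 11.59 ± 0.15 in shControl and 10.78 ± 0.16 in shPCAF cells (SD, n = 2 each). The log2 difference was -0.82 ± 0.12 (moderated SE from limma), which is a signal 1.76-fold lower, with a 95% interval of 1.41- to 2.19-fold. In total RNA of a whole culture, fewer cells in a phase of the cycle and less RNA per cell cannot be told apart.

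CDC20 had the smallest pooled spread of the 3 genes between arrays of a group. Its log2 signals were 12.64 and 12.71 on the shControl arrays and 11.65 and 11.77 on the shPCAF arrays. The arrays of a group lay close together, and the groups stood 0.87 apart at their nearest points on the log2 scale. The mean log2 signal was 12.68 ± 0.05 in shControl and 11.71 ± 0.09 in shPCAF cells (SD, n = 2 each). The log2 difference was -0.97 ± 0.08 (moderated SE), a signal 1.95-fold lower with a 95% interval of 1.69- to 2.26-fold.

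ANAPC5 differed most. Its log2 signals were 11.17 and 11.23 on the shControl arrays and 9.75 and 9.97 on the shPCAF arrays. The groups were 1.20 apart at their nearest points on the log2 scale, and the shPCAF arrays were further from each other (0.21) than the shControl arrays (0.06). The mean log2 signal was 11.20 ± 0.05 in shControl and 9.86 ± 0.15 in shPCAF cells (SD, n = 2 each). The log2 difference was -1.34 ± 0.10 (moderated SE), a signal 2.53-fold lower with a 95% interval of 2.12- to 3.02-fold. The ANAPC5 probe set is 1 of 4201 with the lowest identifiers on the array, a block with no description in the files, and it is the 1 member of the 3 in that block. Whether the block holds control probe sets is not stated, so the ANAPC5 values, their size and rank included, rest on the symbol in the authors' table. Any other probe set of ANAPC5, SKP2 or CDC20 carries no symbol in these files and was not analysed here.

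**Figure D2:**
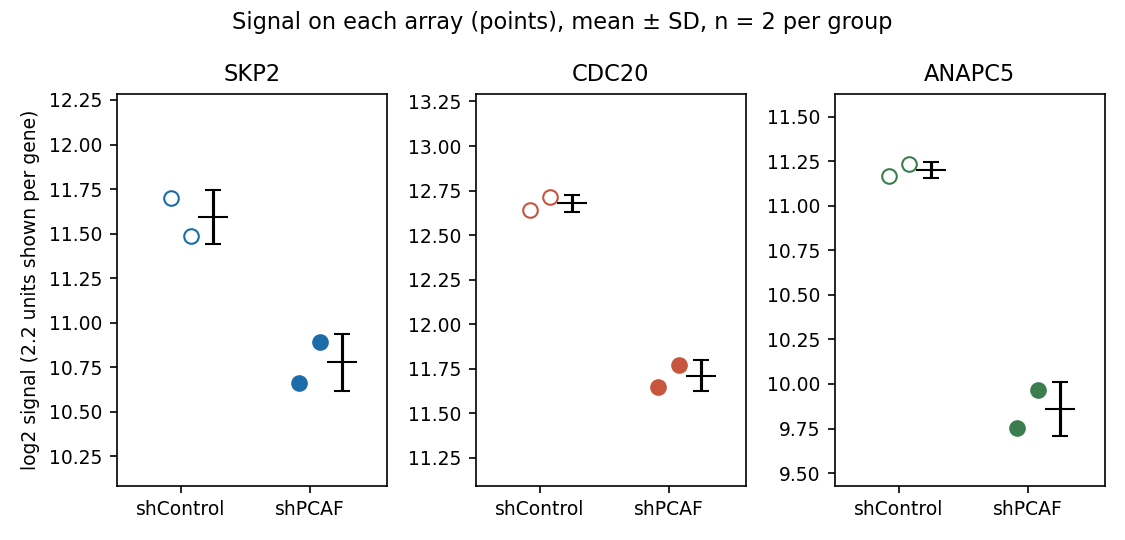
Log2 signal (vertical axis, the same span for each gene) of SKP2, CDC20 and ANAPC5 on each of the 4 arrays, with open points for shControl, filled points for shPCAF, and the mean and SD of each group (n = 2) beside them. In each gene both shPCAF arrays lie below both shControl arrays, with gaps of 0.59 for SKP2, 0.87 for CDC20 and 1.20 for ANAPC5 on the log2 scale. That order of the arrays was found in 36% of all probe sets.

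The 3 genes were compared in size of change and in noise. The log2 difference of ANAPC5 minus that of CDC20, taken within each array, was -0.37 with an SE of 0.05 from 2 residual degrees of freedom. ANAPC5 minus SKP2 was -0.52 with an SE of 0.14. CDC20 minus SKP2 was -0.15 with an SE of 0.15, about the size of the difference itself. With 2 residual degrees of freedom each of these SEs is imprecise, and no pair is called different here. The separate 95% intervals of the 3 genes overlapped in every pair, that of ANAPC5 and SKP2 included, which is not a comparison within arrays. The pooled within-group SD on the log2 scale was 0.16 for SKP2, 0.11 for ANAPC5 and 0.07 for CDC20. Its median over all probe sets was 0.08. With n = 2 per group these SDs are imprecise. The difference of SKP2 was 5.21 times its pooled SD, compared with 13.7 times for CDC20 and 12.1 times for ANAPC5. On the shControl arrays SKP2 was higher in replicate 1, while CDC20 and ANAPC5 were higher in replicate 2. On the shPCAF arrays all 3 were higher in replicate 2.

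Over all probe sets, limma's moderated test called 5.85% lower and 7.05% higher in shPCAF cells at a Benjamini-Hochberg adjusted p under 0.05 (1948 and 2346 of 33297). All 3 genes were among the lower calls, which follows from how they were chosen. The share of lower calls among all calls was 45.4% without further centring and 32.0% with the median of every array set to 0, which left 1419 lower and 3012 higher. Without shControl replicate 1, and equally without shControl replicate 2, limma called 0 probe sets. Without replicate 1 of shControl, 6848 probe sets had an unadjusted p below 0.05, and without replicate 2, 6849 had. The calls numbered 706 lower and 1227 higher without shPCAF replicate 1, where SKP2 was no longer among them, and 1142 lower and 1221 higher without shPCAF replicate 2. Both shPCAF arrays lay below both shControl arrays in 36% of all probe sets, and above them in 23.1%, so that pattern alone is common here. Counted from the lowest difference upward, ANAPC5 ranked 35, CDC20 202 and SKP2 383 among the 33297 probe sets. Among the 237 lower probe sets of the authors' deposited table they ranked 9, 78 and 140. The smallest difference of any probe set in that table was 0.70 on the log2 scale, so SKP2 lay nearest to its edge.

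**Figure D3:**
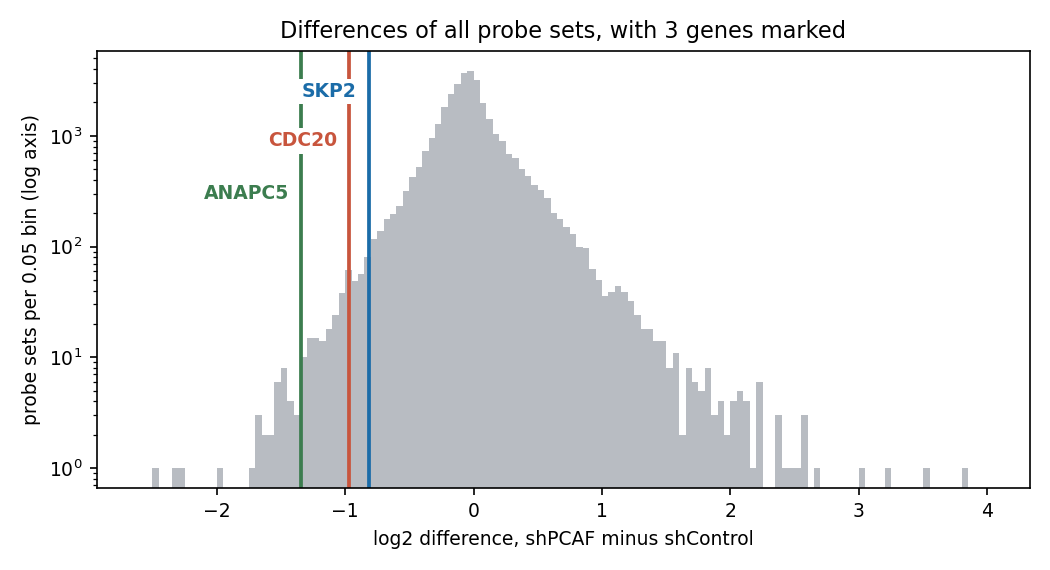
Number of probe sets (log axis) by log2 difference, shPCAF minus shControl, in bins of 0.05 over all 33297 probe sets, with vertical lines at SKP2 (-0.82), CDC20 (-0.97) and ANAPC5 (-1.34). The 3 genes lie in the lower tail, at ranks 383, 202 and 35 from the lowest.

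The authors' deposited table lists SKP2 at 1.75, CDC20 at 2.08 and ANAPC5 at 2.87 in a column headed fold change. These numbers in the authors' deposited table are not folds of the array signals, because each is 2.14 to 2.15 times the log2 difference without its sign. For SKP2 the listed number and the fold of 1.76 nearly coincide, whereas for ANAPC5 the listed number in the authors' deposited table is above the fold of 2.53.

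The machinery around the 3 genes and its targets were described with 7 lists, of 214 genes in all, of which 28 probe sets were named in the table. The lists of APC/C substrates (35 genes) and SKP2 substrates (20 genes) hold targets of the ligases, not ubiquitin machinery. They gave 11 probe sets, all lower, and 3 probe sets, 2 of them lower, so the counts below are partly those of targets. All 28 passed limma's test, 21 lower and 7 higher, which again follows from the choice of the table, where 522 probe sets were higher and 237 lower. Their median log2 difference was -0.90, and -0.86 without the 3 genes, beside 0.80 over the 759 probe sets of the table and -0.05 over all probe sets tested. The table holds log2 differences of 0.70 or more in either direction, so the median over unselected probe sets is no match for a list taken from it. The lists were also chosen with earlier results of these data known. Neither comparison can therefore show that the listed genes, or the ubiquitin machinery among them, lean lower. Genes of the lists that are not in the table have no value here, and their absence is no measurement.

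Among 14 APC/C subunits, 4 probe sets were in the table, and they did not all go the same way. Besides ANAPC5, ANAPC15 (listed as C11orf51), which promotes turnover of CDC20 in the checkpoint complex, was lower, with log2 signals of 11.78 and 11.89 in shControl and 10.93 and 11.09 in shPCAF cells. Its log2 difference was -0.82 ± 0.09 (SE). A probe set listed under both CDC26, which stabilises the subunit CDC16, and CDC26P1 was lower by a log2 difference of -0.99 ± 0.09 and cannot be assigned to either symbol alone. ANAPC16, a small subunit of the complex, was higher, with log2 signals of 9.01 and 9.05 in shControl and 9.70 and 9.77 in shPCAF cells. Its log2 difference was 0.70 ± 0.07 (SE), at the edge of the table. The groups did not overlap in any of the 4 probe sets, which is no result for probe sets selected on the same arrays. Over all probe sets, both shPCAF arrays lay below both shControl arrays in 36% and above them in 23.1%.

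Of 18 coactivators, E2 enzymes, inhibitors and checkpoint proteins that act on the APC/C, BUB1B was the 1 named beside CDC20. BUB1B encodes BubR1, which binds CDC20 in the mitotic checkpoint complex. Its log2 signals were 11.31 and 11.22 in shControl and 10.21 and 10.40 in shPCAF cells. Its log2 difference of -0.96 ± 0.09 (SE) was close to that of CDC20.

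The APC/C substrate list, of 35 proteins known or proposed to be degraded through the complex, had 11 probe sets in the table. All 11 were lower, with log2 differences from -1.51 to -0.70 and a median of -1.04. Among all 759 probe sets named there, 237 were lower. The list was chosen with earlier results of these data known, and its genes outside the table have no value here. The count of 11 therefore cannot show that APC/C substrates lean lower. CDCA3, a cell division protein, was 2.84-fold lower, from log2 signals of 9.66 and 9.74 to 8.09 and 8.29. The probe set of PTTG1, which encodes securin, is also listed under PTTG2 and was 2.73-fold lower, from log2 signals of 10.14 and 10.33 to 8.79 and 8.79. The kinesin KIF20A was 2.39-fold lower, the transcription factor FOXM1 2.33-fold and the mitotic kinase PLK1 2.06-fold. A probe set listed under AURKA, a spindle pole kinase, and AURKAPS1 was 2.10-fold lower. RRM2, a ribonucleotide reductase subunit, and SHCBP1 were each 1.94-fold lower. CDCA5 (sororin, a protector of sister chromatid cohesion) was 1.78-fold lower, the centromere kinase AURKB 1.67-fold and the chromokinesin KIF22 1.62-fold. The differences of SKP2, CDC20 and ANAPC5 lie within the range of this list. The end of that range at -0.70 is the edge of the table, so lying within it shows no likeness.

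On the SCF side, 2 of 16 genes of the SKP2 complex were in the table. Beside SKP2 there was a probe set listed under NEDD8, the ubiquitin-like protein that activates cullins, and LOC100128775. Its log2 difference was -0.77 ± 0.07 (SE). Of 20 proteins known or proposed as SKP2 substrates, 3 were in the table. ORC1, of the origin recognition complex (listed as ORC1L), was 2.13-fold lower and MYBL2, the transcription factor B-Myb, 1.93-fold lower. RBL2, which encodes p130 of the retinoblastoma family, was 2.24-fold higher, with log2 signals of 8.49 and 8.60 in shControl and 9.59 and 9.84 in shPCAF cells. These are levels of RNA, and the arrays do not measure the proteins on which SKP2 acts. The table holds no line for CDKN1B, so the level of p27 RNA was not analysed here.

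Of 39 other cell-cycle ubiquitin ligase genes, 1 was in the table. KLHL13, an adaptor of CUL3 ligases that act on Aurora B, was 1.81-fold lower, from log2 signals of 7.80 and 7.69 to 6.81 and 6.97. Of 74 ubiquitin conjugation genes without a main role in the cell cycle, the table held 5, each of them higher. Among all 759 probe sets named there, 522 were higher, so this count cannot show that these genes lean higher. FBXO32, an F-box protein known from muscle atrophy, was 2.51-fold higher, and the HECT ligase NEDD4 2.41-fold. SMURF2, a HECT ligase of TGF-beta signalling, and the F-box gene FBXO25 were each 1.72-fold higher, and ASB1, a SOCS box protein, 1.69-fold. The listed F-box genes in the table thus went both ways, with SKP2 lower and FBXO25 and FBXO32 higher, and F-box genes outside the lists were not looked up.

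**Figure D4:**
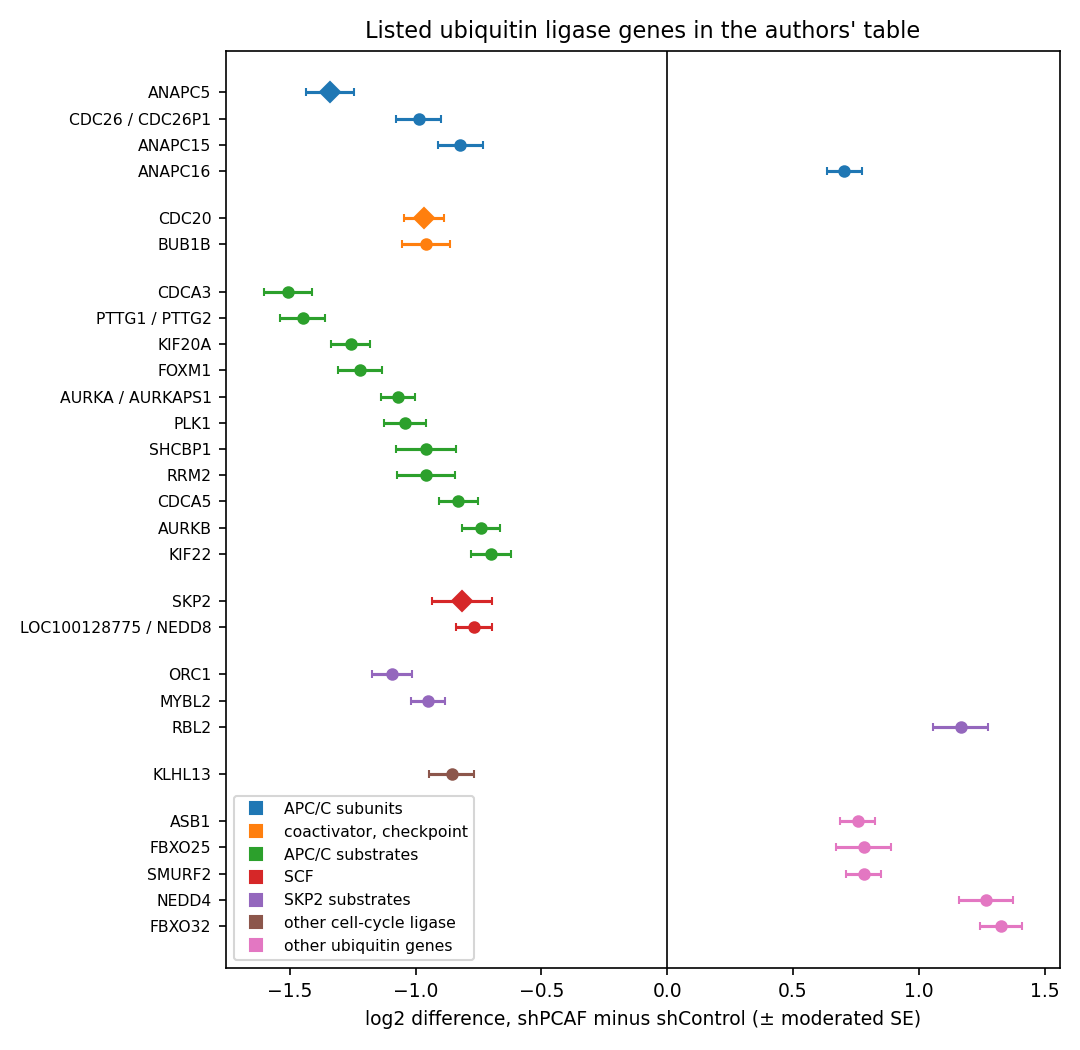
Log2 difference, shPCAF minus shControl, with the moderated SE, for each listed ubiquitin gene or ligase substrate in the authors' table. Each list has its colour, and diamonds mark SKP2, CDC20 and ANAPC5. The 11 probe sets of APC/C substrates lie between -1.51 and -0.70, while ANAPC16, RBL2 and the 5 other ubiquitin genes lie above 0.

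The probe sets whose values over the 4 arrays were most like those of each gene were found among the 711 probe sets with 1 symbol in the table. Each profile was centred on its mean, and likeness was measured as the Euclidean distance over the 4 arrays in log2 units. With 4 arrays in 2 groups, this distance mostly reflects the size of the group difference and, next, which array of a group was higher. SKP2 was nearest to MICB, a stress ligand of natural killer cells, at a distance of 0.04. It was then nearest to the kinase CDK1 and to MIS18A, which helps to load the centromeric histone, both at 0.06, and to NUP107, a nuclear pore protein, and HNRNPD, an RNA-binding protein, both at 0.08. As in SKP2, replicate 1 was the higher shControl array and replicate 2 the higher shPCAF array in all 5, among them CDK1 with log2 signals of 10.54 and 10.35 against 9.57 and 9.73.

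CDC20 was nearest to ARHGEF39 at a distance of 0.03. PHF19, a partner of Polycomb complexes, and ESPL1 followed, both at 0.04, then NDUFA2, a subunit of respiratory complex I, at 0.06 and FAM83D, a spindle protein, at 0.07. ESPL1 encodes separase, the protease that cleaves cohesin once securin has been destroyed, and its log2 signals were 9.85 and 9.95 in shControl and 8.82 and 8.97 in shPCAF cells. ANAPC5 was nearest to MFSD2A, a lipid transporter, at a distance of 0.03. COMMD4 was at 0.07, BSCL2 (seipin) at 0.08, KIF20A at 0.10 and the alpha-tubulin TUBA4A at 0.11. HNRNPD and NDUFA2, like ANAPC5, were measured on probe sets of the undescribed block. SKP2, CDC20 and ANAPC5 were not among each other's nearest profiles, the closest pair being SKP2 and CDC20 at a distance of 0.26.

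**Figure D5:**
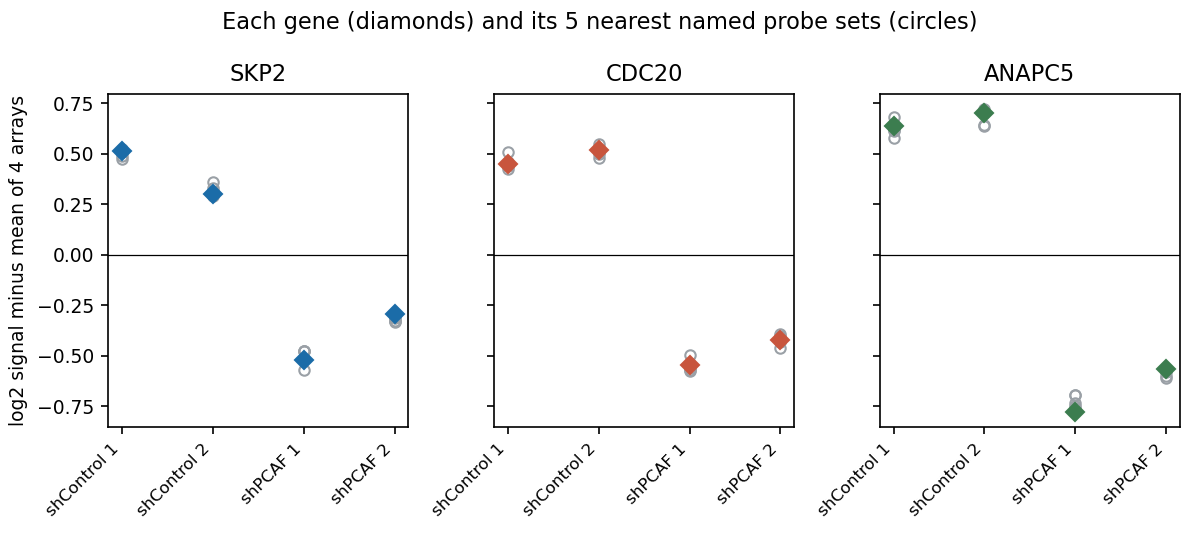
Log2 signal on each array minus the mean of the 4 arrays, for SKP2, CDC20 and ANAPC5 (diamonds) and the 5 named probe sets nearest to each (circles). The farthest of the 5 lies at a Euclidean distance over the 4 arrays of 0.08 from SKP2, 0.07 from CDC20 and 0.11 from ANAPC5.

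The arrays had median log2 signals of 7.02 to 7.10, and no pair held identical values. The table has no line for KAT2B, so the knockdown has no check in these values. Of 10 colorectal epithelial markers, E-cadherin (CDH1) was the 1 named in the table, at log2 signals of 10.23 and 10.39 in shControl and 11.56 and 11.26 in shPCAF cells. CDH1 is named there because it differed, and 1 marker cannot check the label of the cells. Among markers of other cell types, the table named 2 of 8 fibroblast genes (ACTA2, 1.82-fold higher, and TAGLN, 1.66-fold lower), 1 of 8 blood cell genes (CD22, 2.91-fold higher) and 0 of 4 endothelial genes. Their part in the differences of SKP2, CDC20 and ANAPC5 was not tested.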

How the data were processed

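Gene expression in HCT116 cells was measured from total RNA on 4 arrays, 2 shControl and 2 shPCAF, grouped by sample title. As deposited, the values are log2 signals per probe set (the scale was read from their range, 3.62 to 14.21). Per the submitters' processing notes, Affymetrix Expression Console and limma were used, with no role stated. How signals were summarized and normalized, and on which genome build, is not given in the sources used here. The authors' deposited table pairs probe sets with symbols. The authors' column headed fold change is treated here as a score, deposited with no account of how it was computed, since it is proportional to the log2 difference. Its deposited p-values were not used. Scanner files were not used, so background and scan batches were not checked.

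The difference was fitted on all 33297 probe sets with limma 3.58.1 in R 4.3.3 (functions lmFit and eBayes, without covariates or filters), with Benjamini-Hochberg adjustment over all of them and a threshold of 0.05. The fit was run on simulated arrays and the motif search on planted matches, as a check of the computation alone and not of its accuracy on these arrays. Symbols were matched without regard to case to RefSeq symbols (688 of 852 lines) or to the synonym of a single gene (122 lines). Promoters were read from the RefSeq table (GRCh38.p14, 3 of 3 genes found). Python 3.11.15 was used for the rest.

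SKP2, CDC20 and ANAPC5 and the gene lists were chosen with earlier results of these data known. The other genes named are listed ubiquitin genes, ligase substrates and cell type markers in the table and the 5 profiles nearest to each gene. Listed genes on probe sets of several symbols are named with all symbols. The alternatives were quantile normalization, median centring, a replicate block, leaving out each array, the brighter probe sets, array weights, a robust prior with an intensity trend, a stricter threshold and, chosen after seeing the data, leaving out the undescribed block.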

Additional observations from a re-analysis of the deposited data

How the results depend on the processing

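SKP2, CDC20 and ANAPC5 stayed lower in shPCAF cells in each alternative computed for them: quantile normalization, median centring, array weights, the replicate block and each array left out. Their log2 differences after median centring were -0.75, -0.90 and -1.28. With each array left out they ranged from -0.93 to -0.70 for SKP2, -1.03 to -0.91 for CDC20 and -1.45 to -1.23 for ANAPC5. The numbers of called probe sets (limma) with each array left out ranged from 0 to 1227 higher and 0 to 1142 lower, and at a threshold of 0.01 they were 213 higher and 75 lower. At that threshold ANAPC5 was the 1 gene of the 3 called, which, like the other calls of these genes, is a description of genes selected on the same arrays. With the replicate number as a block, 2454 probe sets were higher and 2130 lower and the 3 genes were called. The same-numbered arrays deviated together (r = 0.25 across probe sets), but 2 pairs that share a number do not show pairing. Without the undescribed block of probe sets, 2950 were higher and 2369 lower, and ANAPC5 had no value. With 2 arrays a group, their number limits the precision of every value.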
